A study of Mus musculus with 29 samples.

Results

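Megakaryocyte-erythrocyte progenitors (MEPs) are the bone marrow progenitors of platelets and red cells. In MEPs, 89 of 18834 measured genes were nearly silent in control mice and at a higher level once both Ezh2 alleles were lost. They were chosen on the RNA levels themselves. Levels are CPM, a gene's count divided by the library's total count and multiplied by 1000000. A gene was taken when its mean was under 0.5 CPM in controls and at least 1 CPM in Ezh2 -/- without JAK2 V617F, with each of the 4 Ezh2 -/- libraries above each of the 5 controls. Of the 6740 genes under 0.5 CPM in controls, 1.32% met the rule. Another 10 genes met these values but were left out by name, because the rule sets aside the Hox genes and a short list of single genes.

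RNA was sequenced from 230000 sorted MEPs per sample in 29 mouse samples. All mice carried the Cre transgene that the labels spell SclCre or ScleCre, a Cre driven by regulatory DNA of the blood stem cell gene Scl (Tal1), so the controls carried it too. Without V617F the groups were Ezh2 +/+ (control, n = 5, 2 male and 3 female), Ezh2 +/- (n = 4, 2 male and 2 female) and Ezh2 -/- (n = 4, 1 male and 3 female). With JAK2V617F, the activating kinase mutation of myeloproliferative neoplasms, they were Ezh2 +/+ (n = 4, 1 male and 3 female), Ezh2 +/- (n = 6) and Ezh2 -/- (n = 6), and the latter 12 were all female. The sources used here do not give ages, sorting gates, how the Cre was switched on or which exons of Ezh2 were deleted. The labels call the samples replicates and do not say whether each came from its own mouse. Groups with both sexes must hold more than 1 mouse. The spread behind each p-value may still be technical in part, or wholly so in the all-female groups.

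EZH2 is the catalytic subunit of Polycomb repressive complex 2 (PRC2), which methylates lysine 27 of histone H3. The trimethylated mark is typical of developmental and lineage-restricted genes that a cell type keeps off, and it is found most often at promoters rich in the dinucleotide CpG. EZH1 is an alternative catalytic subunit that can take EZH2's place in the complex.

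Promoter sequences are shown for 4 of the genes, to show the range of CpG content that is counted after them. The printed stretch is the 250 bases before the transcription start in RefSeq's table for GRCm38.p6, 5′ to 3′ on the gene's strand, with each CpG in capitals. Ddah1 and Bmpr1a had the highest means in Ezh2 -/- without V617F, Esx1 was close to 0 in controls, and the Snrpn start shown is low in CpG. The positions are chr3:145758442-145758691 on the plus strand for Ddah1, chr14:34502547-34502796 on the minus strand for Bmpr1a, chrX:137120327-137120576 on the minus strand for Esx1, and chr7:60450178-60450427 on the minus strand for Snrpn. Where the table lists several starts for a gene, as for Snrpn, the first was read.
Ddah1: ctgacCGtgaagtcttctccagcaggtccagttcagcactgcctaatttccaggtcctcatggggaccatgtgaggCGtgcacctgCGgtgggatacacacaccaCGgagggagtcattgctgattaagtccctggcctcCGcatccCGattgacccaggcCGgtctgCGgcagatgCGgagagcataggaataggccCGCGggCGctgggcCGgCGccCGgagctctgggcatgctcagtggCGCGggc
Bmpr1a: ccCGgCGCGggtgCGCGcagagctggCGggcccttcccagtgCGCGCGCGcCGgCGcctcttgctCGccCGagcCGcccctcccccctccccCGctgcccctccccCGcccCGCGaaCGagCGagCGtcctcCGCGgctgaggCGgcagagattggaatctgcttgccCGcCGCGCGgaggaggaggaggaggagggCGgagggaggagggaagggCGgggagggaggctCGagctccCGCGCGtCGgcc
Esx1: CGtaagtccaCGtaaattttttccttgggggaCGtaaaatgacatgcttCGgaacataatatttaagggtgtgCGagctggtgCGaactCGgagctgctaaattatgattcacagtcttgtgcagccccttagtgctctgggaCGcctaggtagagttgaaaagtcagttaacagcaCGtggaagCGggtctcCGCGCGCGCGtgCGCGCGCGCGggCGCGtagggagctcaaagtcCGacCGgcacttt
Snrpn: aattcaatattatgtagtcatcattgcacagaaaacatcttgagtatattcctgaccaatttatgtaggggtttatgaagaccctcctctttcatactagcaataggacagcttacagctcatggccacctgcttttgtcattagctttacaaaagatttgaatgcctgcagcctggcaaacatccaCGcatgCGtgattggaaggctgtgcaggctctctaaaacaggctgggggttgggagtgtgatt

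The printed stretches hold 17 CpGs for Ddah1, 36 for Bmpr1a, 24 for Esx1 and 2 for Snrpn. A promoter entry was found for 69 of the 89 genes and for 14425 of all measured genes. A promoter was counted as CpG-rich when, over the 300 bases from 250 before to 50 after the start, the observed/expected CpG ratio was at least 0.6 and the GC content at least 50%. By that count 46 of the 69 promoters (66.7%) were CpG-rich, against 28% of the 4730 promoters of genes that were also under 0.5 CPM in controls but did not meet the rule. The share was 69.7% among genes at 0.5 CPM or more in controls and 56% among all measured genes. The median observed/expected ratio was 0.749 for the genes switched on, 0.375 for the other silent genes and 0.773 for the expressed ones. These sets were not matched for gene length or for level in controls. The median length was 3448 bases for the 89 genes and 2118 for the other silent genes, and CPM takes no account of length.

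**Figure D1:**
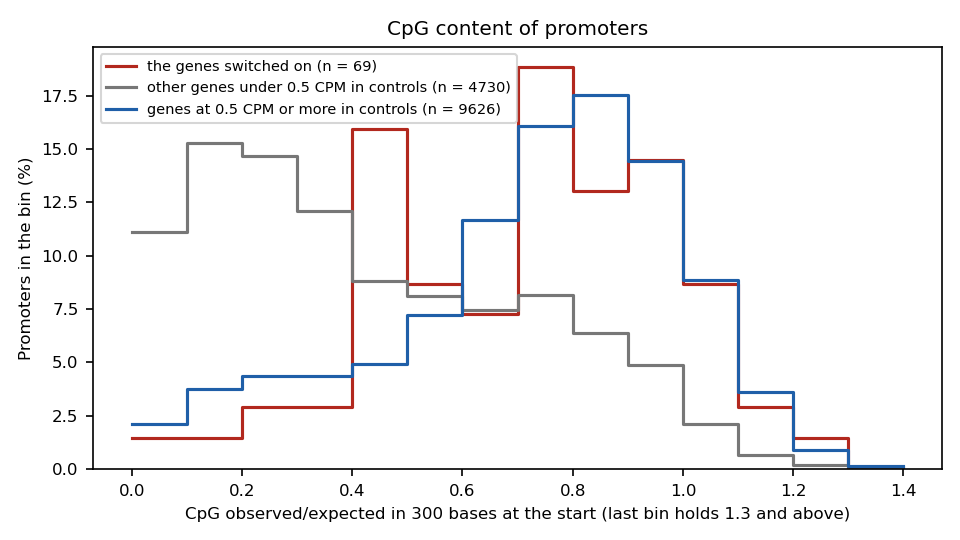
Share of promoters (vertical axis, %) in each bin of the observed/expected CpG ratio over 300 bases at the transcription start (horizontal axis), for 69 genes switched on, 4730 other genes under 0.5 CPM in controls and 9626 genes at 0.5 CPM or more. The genes switched on lie near the expressed genes (medians 0.749 and 0.773), while the other silent genes lie lower (median 0.375).

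Common promoter motifs were counted in the same way. The TATA box TATAAA, searched on both strands of the same 300 bases, occurred in 4 of 69 promoters (5.80%), against 9.18% of all promoters and 14.1% of those of the other silent genes. CCAAT, the NF-Y motif, occurred in 23.2% against 38.5% of all promoters. AGATAA, a form of the GATA factor motif of red cell and platelet genes, occurred in 5.80% against 7.86%. These are matches of letters and were given no test. Of the 89 genes, 8 (8.99%) lay on the X chromosome, which holds 3.71% of the measured genes. Only Snrpn and Snurf were neighbours on the chromosome.

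Depth allowed low levels to be read. Libraries held 31.6 to 59.4 M counts (median 44.6 M), so 3 counts, the limit that a count of 0 allows, correspond to 0.0505 to 0.095 CPM in a single library (counting error only). Ezh2 itself followed the labels, with 300 ± 15.8 CPM in controls (SD, n = 5), then 188 ± 5.74 CPM (n = 4) with 1 allele and 72.1 ± 6.78 CPM (n = 4) with none. In the V617F groups it was 285 ± 20.8 CPM (n = 4), 173 ± 17.6 CPM (n = 6) and 57.6 ± 3.19 CPM (n = 6) in the same order. The counts are per gene, so whether the remaining Ezh2 reads come from undeleted exons cannot be read from them. The erythroid markers summed to 5631 to 9938 CPM per library, with all 15 measured ones detected in every group. The MEP label was thus matched by red cell genes such as Gata1, Klf1 and Car1.

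In the groups that chose them, the 89 genes together went from a trace to a low but steady level. The control libraries held 18.9, 18.8, 25.4, 20.9 and 34.4 CPM over all 89 genes, and the Ezh2 -/- libraries 229, 214, 223 and 243 CPM. A library of controls had 0 or 1 of the genes at 1 CPM or more, and an Ezh2 -/- library 81 to 87 of them. These values follow from the choice of genes and carry no test. Most levels stayed low: 52 genes were under 2 CPM and 7 over 5 CPM in Ezh2 -/-, where the genes expressed at 0.5 CPM or more in controls had a median of 33.1 CPM. The ratio of the means had a median of 8.10 and was over 10 for 37 genes and under 4 for 12. Libraries of bulk cells cannot tell a low level in all cells from a high level in few cells, nor fewer cells of a type from less RNA per cell.

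At the thresholds of the rule the choice was a matter of small differences. Rtkn (0.491 CPM) and Bmpr1a (0.497 CPM) were just inside the control limit, and Rragd (0.509 CPM) and Ank2 (0.512 CPM) just outside it. Esx1 (1.01 CPM) and Tcf15 (1.05 CPM) just reached the limit in Ezh2 -/-, and Inava (0.992 CPM) and Stc2 (0.997 CPM) just missed it. The controls were not at 0: 76 of the 89 genes had counts in all 5 control libraries.

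**Figure D2:**
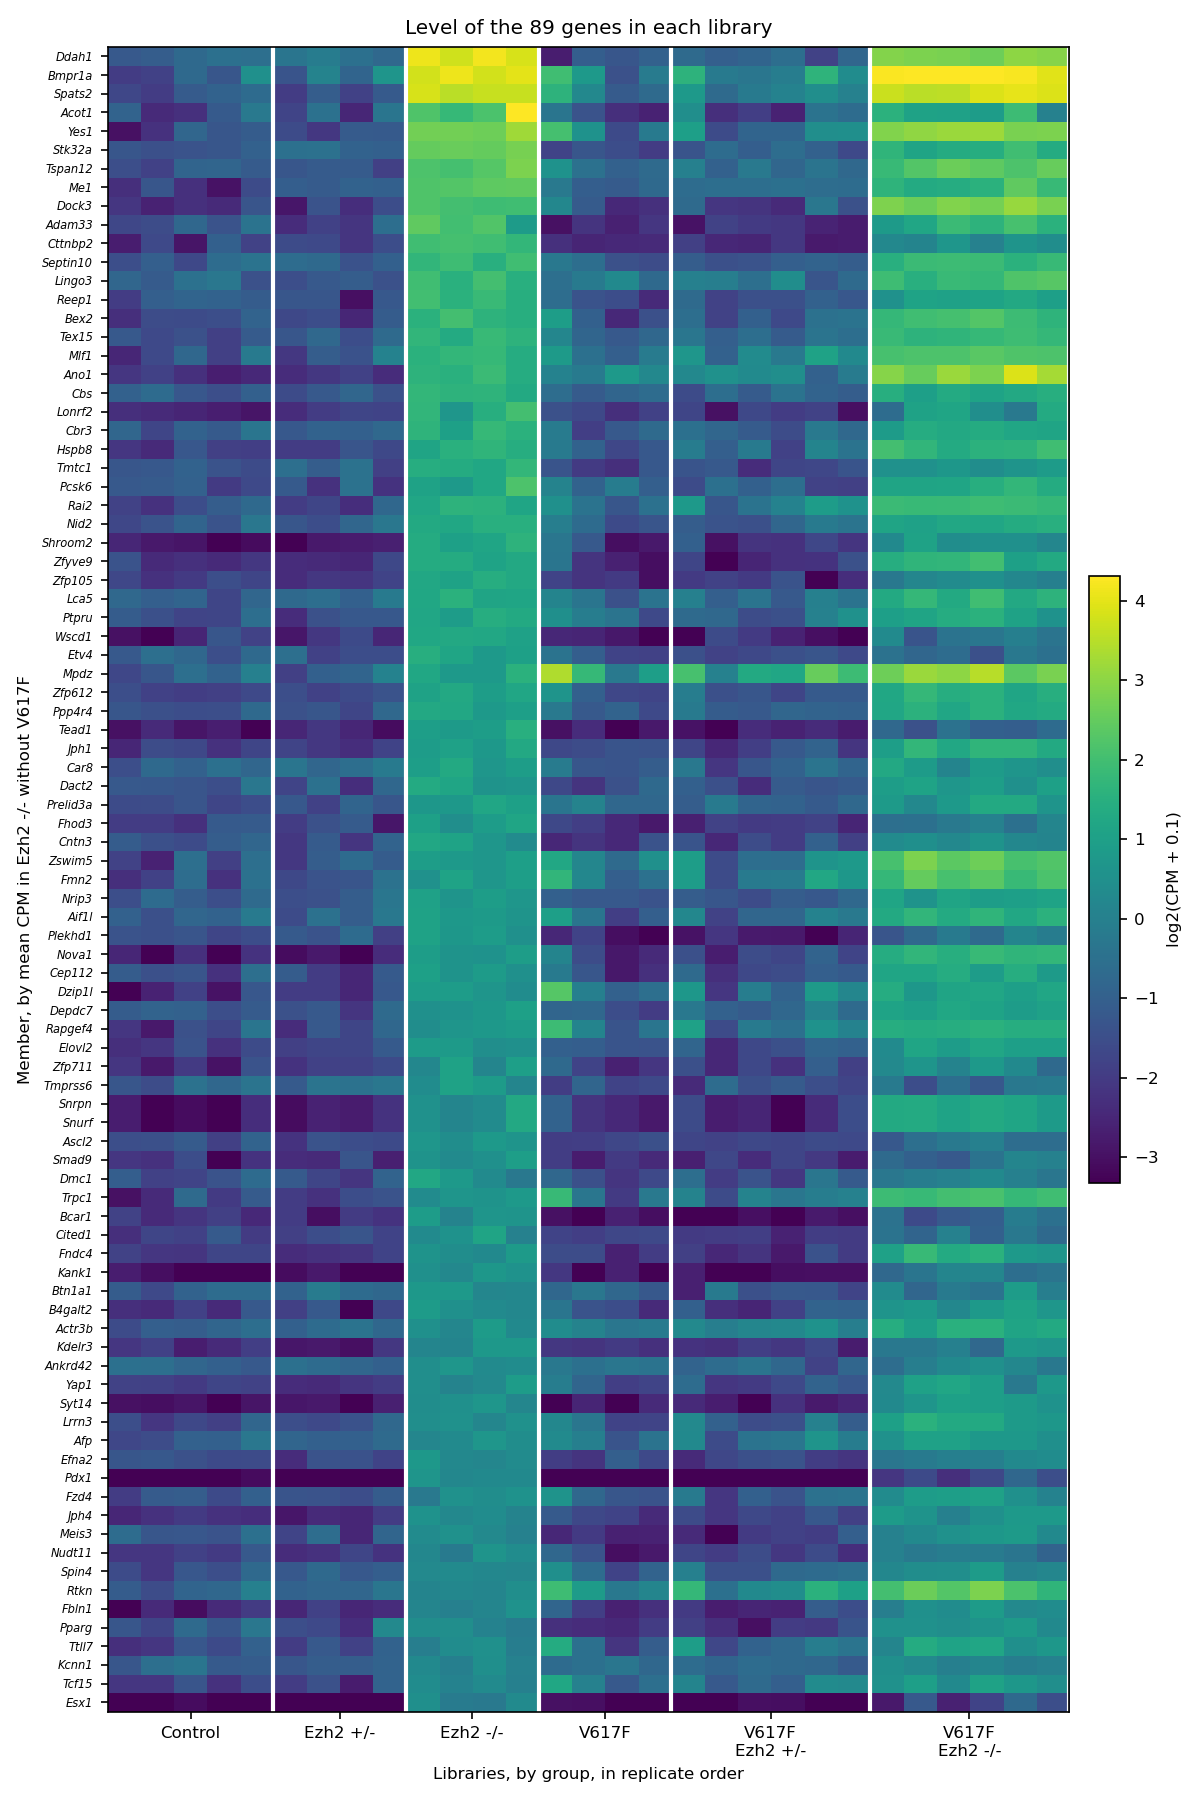
Level of each of the 89 genes (rows, ordered by mean CPM in Ezh2 -/- without V617F) in each of the 29 libraries (columns, by group), as log2(CPM + 0.1) on the colour scale. Both Ezh2 -/- blocks are bright over nearly the whole list, and the Ezh2 +/- blocks resemble the Ezh2 +/+ blocks. The first V617F column is brighter than its 3 neighbours.

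Loss of 1 Ezh2 allele without V617F went with summed levels inside the control range. The Ezh2 +/- libraries held 20.1, 25.8, 22.3 and 32.2 CPM over the 89 genes, against 18.8 to 34.4 CPM in controls. The top of that range is control replicate 5 alone, and the next highest control was at 25.4 CPM, below 2 of the 4 Ezh2 +/- libraries. The median gene was at 0.266 CPM in Ezh2 +/- and 0.276 CPM in controls. Gene by gene, the mean was higher in Ezh2 +/- than in controls for 53 genes and lower for 36. None of the 89 had a mean of 1 CPM or more in Ezh2 +/-. Since the controls chose the genes for low values, this is a description with no test.

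The V617F groups took no part in the choice and serve as the independent measurement. In V617F Ezh2 +/+ the 4 libraries held 92.7, 42, 23.9 and 29.9 CPM over the 89 genes. In V617F Ezh2 -/- the lowest of 6 libraries held 214 CPM, the median 232 CPM and the highest 251 CPM, so the groups did not overlap. The number of genes at 1 CPM or more was 28, 7, 2 and 4 in the V617F Ezh2 +/+ libraries and 67 to 72 in V617F Ezh2 -/-. V617F Ezh2 +/+ replicate 1, at 92.7 CPM, stood well above the other 3 of its group.

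**Figure D3:**
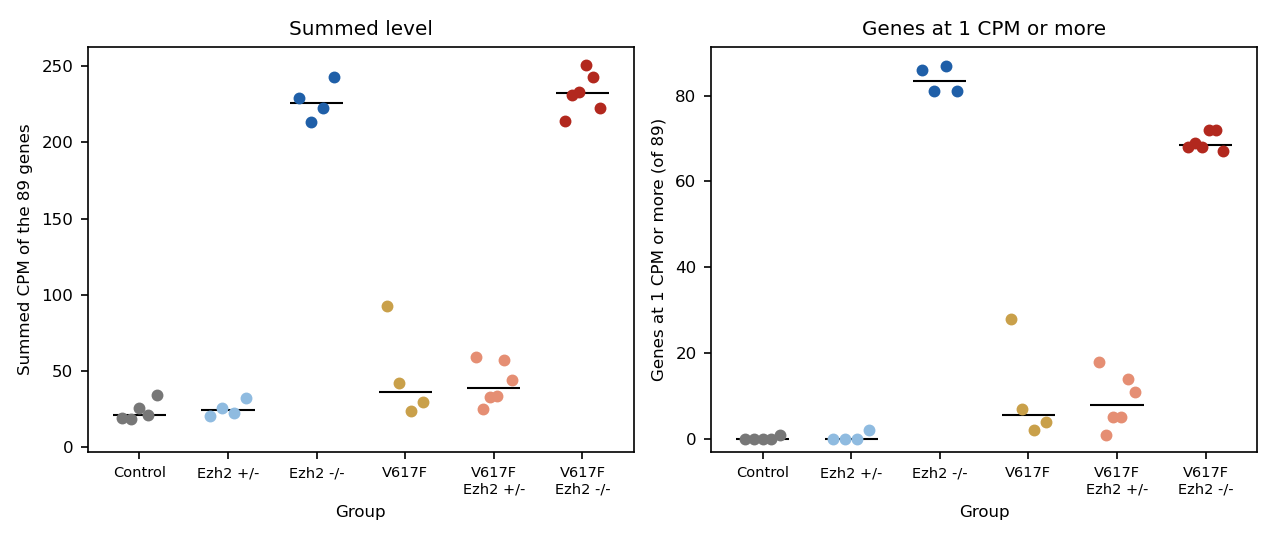
Left, summed CPM of the 89 genes per library; right, number of the genes at 1 CPM or more per library. Points are libraries, horizontal lines are group medians, and the horizontal axis gives the 6 groups. Both Ezh2 -/- groups lie at 214 to 251 CPM, and every other library lies at 92.7 CPM or lower.

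With V617F, 79 of the 89 genes were higher in Ezh2 -/- than in Ezh2 +/+ (n = 6 against 4) and 0 were lower (edgeR quasi-likelihood test, adjusted p under 0.05 over 13928 genes). Over all genes tested, 13% were higher and 13.6% lower. The log2 fold change was above 0 for all 89 genes and at least 2 for 61 of them. Its median was 2.36, against -0.00 over all genes tested. For 73 genes every V617F Ezh2 -/- library lay above every V617F Ezh2 +/+ library, which held for 11.6% of all genes (6.82% in the other direction). At an unadjusted p under 0.05 there were 81 higher and 0 lower, and DESeq2 called 79 and 0. Of the other genes under 0.5 CPM in controls, 1745 had enough counts to be tested, and 312 of them (17.9%) were higher. The median log2 fold change over all 1745 was 0.40. All 89 genes passed the filter on low counts, and each exceeded its limit of 0.224 CPM in all 4 Ezh2 -/- libraries without V617F. Other silent genes could also pass it through Ezh2 -/- libraries where they were high, which favours higher over lower calls among them.

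**Figure D4:**
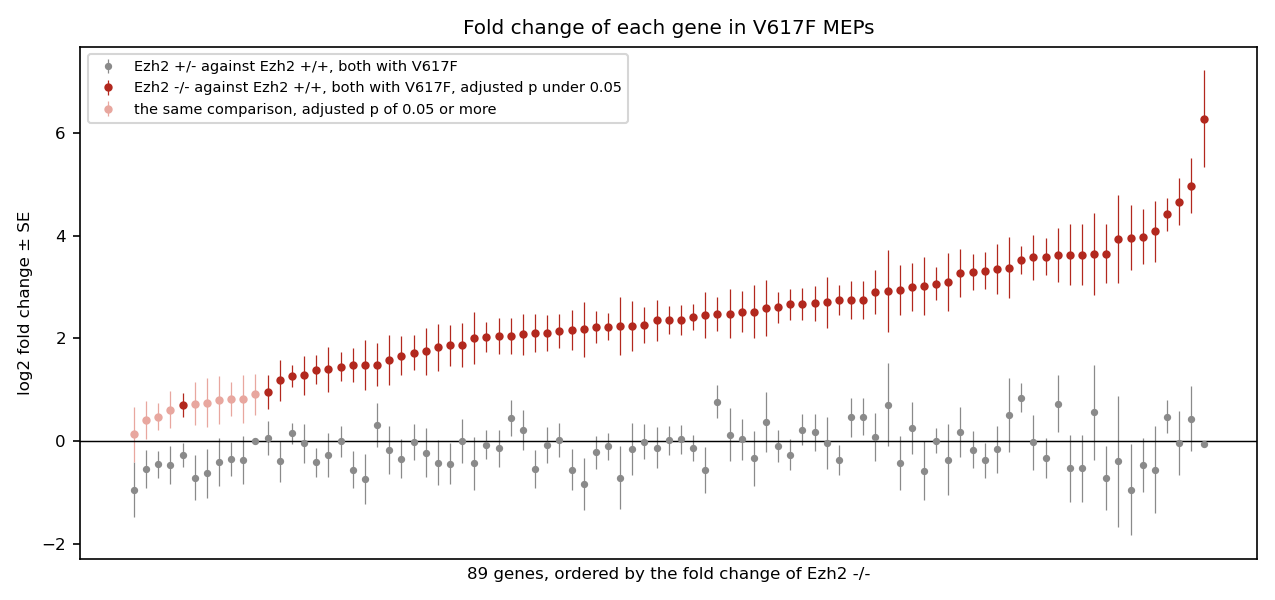
log2 fold change ± SE (vertical axis) of the 89 genes with V617F, ordered by the fold change of Ezh2 -/- against Ezh2 +/+ (red, 6 against 4 libraries; pale red where the adjusted p is 0.05 or more); grey points give Ezh2 +/- against Ezh2 +/+ (6 against 4 libraries) for the same genes. The red values run from 0.13 to 6.28, the last being Pdx1, whose value depends on the prior count because V617F Ezh2 +/+ had 0 counts, and the grey values lie around 0 (median -0.15). Both share the V617F Ezh2 +/+ libraries.

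By what the proteins do, the genes were a mixture. Grouped by hand after their names were known, 14 were transcription factors and cofactors (12 higher in V617F Ezh2 -/-), 14 receptors, kinases and signalling proteins (13), 9 enzymes of metabolism (9) and 12 channels, neuronal and membrane proteins (12). A further 12 belonged to the cytoskeleton, junctions and cilia (9 higher), 5 to matrix, secreted proteins and surface proteases (4), 4 to germline and imprinted genes (4), and 19 to none of these (16). Over all 89 genes the share was 88.8%, and differences between the groups were not tested.

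Of the transcription factors of other tissues, Pdx1 and Esx1 were close to absent in controls. Pdx1, the homeobox factor of the pancreas, had 1 count over the 5 controls, at 0.0168 CPM in replicate 5, and measured 1.49, 1.05, 1.13 and 1.13 CPM in Ezh2 -/-. With V617F, Pdx1 had 0 counts in all 4 Ezh2 +/+ and all 6 Ezh2 +/- libraries and 0.106 to 0.486 CPM in Ezh2 -/- (median 0.22), at least 13.2-fold higher than in Ezh2 +/+ when the floor is 3 counts over the group (edgeR adjusted p = 0.000271). Pdx1 was therefore detected in every Ezh2 -/- library, and its mean with V617F was 0.197 of that without. Such ratios of levels with and without V617F are descriptions for each gene named here, since the libraries without V617F chose the genes. Esx1, an X-linked homeobox gene known from placenta and testis, measured 0.018 CPM in control replicate 3 and 0 in the other 4, against 1.31, 0.802, 0.758 and 1.17 CPM in Ezh2 -/-. With V617F it went from 0.027, 0.0241, 0 and 0 CPM in Ezh2 +/+ to 0.0435 to 0.51 CPM in Ezh2 -/- (median 0.222), a ratio of summed counts of 19.4 (95% counting interval 5.14 to 164; edgeR adjusted p = 0.00207).

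Tead1 and Yap1, the DNA-binding factor and the coactivator at the end of the Hippo pathway, were both among the genes. Tead1 measured 0 to 0.0886 CPM in controls and 1.85, 1.69, 1.82 and 2.72 CPM in Ezh2 -/-. With V617F it rose from 0.027, 0.0964, 0 and 0.0439 CPM to 0.272 to 0.637 CPM (median 0.453; log2 3.37 ± 0.60, edgeR adjusted p = 0.000205). Yap1 rose with V617F from 0.838, 0.458, 0.168 and 0.197 CPM to 0.753 to 2.19 CPM (median 1.72; 1.86 ± 0.39, edgeR adjusted p = 0.00132), and the groups overlapped. Pparg, the nuclear receptor of fat cells, went from 0.108, 0.0964, 0.0838 and 0.154 CPM to 1.14 to 1.68 CPM (median 1.35; 3.28 ± 0.47, edgeR adjusted p = 1.42e-05). Its V617F Ezh2 -/- levels were close to the 0.795 to 1.27 CPM of Ezh2 -/- without V617F. Pparg controls were at 0.199 to 0.723 CPM, and Ezh2 +/- replicate 5 without V617F was at 1.12 CPM. Ascl2, a basic helix-loop-helix factor of trophoblast and intestinal stem cells, rose by 1.45 ± 0.28 (edgeR adjusted p = 0.000663). Meis3, a homeobox cofactor, rose by 3.63 ± 0.53 (edgeR adjusted p = 1.91e-05), from 0.0629 to 0.145 CPM to 0.934 to 1.68 CPM. Without V617F it was 0.287 to 0.606 CPM in controls and 0.921 to 1.36 CPM in Ezh2 -/-. For Meis3 and Pparg the V617F Ezh2 +/+ libraries thus lay below the controls.

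Of the 14 receptors, kinases and signalling proteins 13 were called higher with V617F. Bmpr1a, a type I receptor for bone morphogenetic proteins, measured 0.156, 0.177, 0.505, 0.316 and 1.33 CPM in controls and 13.8, 17.3, 13.8 and 15.9 CPM in Ezh2 -/-. With V617F it was 3.84, 1.61, 0.272 and 0.812 CPM in Ezh2 +/+ and 15.5 to 19.8 CPM in Ezh2 -/- (median 19.5; log2 3.35 ± 0.50, edgeR adjusted p = 2.41e-05). The highest V617F Ezh2 +/+ library thus lay far below the lowest Ezh2 -/- library. Smad9, a SMAD of the same pathway, rose by 2.60 ± 0.54 (edgeR adjusted p = 0.00115) and stayed at 0.34 to 1.02 CPM. Zfyve9, which anchors SMAD proteins at endosomes, rose by 3.65 ± 0.57 (edgeR adjusted p = 5.51e-05) and overlaps Cc2d1b, which is expressed over 10 times higher.

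The Src-family kinase Yes1 was at 0.026 to 0.469 CPM in controls and 6.36, 6.39, 6.10 and 9.21 CPM in Ezh2 -/-. With V617F it went from 4.08, 1.4, 0.23 and 0.79 CPM to 6.78 to 9.04 CPM (median 7.64; 2.17 ± 0.53, edgeR adjusted p = 0.00433). The groups did not overlap even though replicate 1 of V617F Ezh2 +/+ reached 4.08 CPM. The kinase gene Stk32a showed no such library: it was 0.189, 0.313, 0.251 and 0.154 CPM in V617F Ezh2 +/+ and 2.11 to 3.82 CPM in V617F Ezh2 -/- (median 2.55; 3.53 ± 0.28, edgeR adjusted p = 1.16e-09). Tspan12, a tetraspanin that works with the Frizzled receptor FZD4 in Norrin signalling, rose by 2.66 ± 0.31 (edgeR adjusted p = 7.13e-07), and Fzd4 by 1.18 ± 0.39 (edgeR adjusted p = 0.0289). Fzd4 overlaps Tmem135, which is over 10 times higher, and its call was lost in 8 of 17 alternative settings. Dock3, an activator of the GTPase Rac, went from 1.05, 0.361, 0.0838 and 0.11 CPM to 5.98 to 8.77 CPM (median 6.91; 3.98 ± 0.53, edgeR adjusted p = 6.28e-06), above its 3.77 to 4.55 CPM in Ezh2 -/- without V617F. Bcar1, the adhesion adaptor p130Cas, rose by 4.08 ± 0.60 (edgeR adjusted p = 2.23e-05), from at most 0.0629 CPM to 0.226 to 0.826 CPM.

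All 9 metabolic enzymes were higher in V617F Ezh2 -/-. Ddah1, which breaks down the nitric oxide synthase inhibitor asymmetric dimethylarginine, had the highest mean of the set without V617F: 17.2, 13.4, 18 and 14.4 CPM in Ezh2 -/- against 0.338 to 0.603 CPM in controls. With V617F it was 0.0541, 0.385, 0.314 and 0.417 CPM in Ezh2 +/+ and 6.11 to 7.97 CPM in Ezh2 -/- (median 7.14; 4.42 ± 0.32, edgeR adjusted p = 2.6e-10). The V617F Ezh2 -/- mean was 0.451 of the mean in Ezh2 -/- without V617F, whose libraries chose the gene. Acot1, an acyl-CoA thioesterase with close paralogs between which reads may be split, measured 4.55, 3.35, 4.32 and 19.7 CPM in Ezh2 -/-, so 1 library set its mean. With V617F it reached 0.918 to 3.67 CPM (median 1.97; 2.93 ± 0.80, edgeR adjusted p = 0.00991), a call that was lost without V617F Ezh2 +/+ replicate 4 (edgeR adjusted p = 0.0507). Me1, the cytosolic malic enzyme that makes NADPH, rose from 0.757, 0.385, 0.356 and 0.505 CPM to 2.47 to 5.40 CPM (median 2.92; 2.67 ± 0.32, edgeR adjusted p = 1.01e-06). Cbs, cystathionine beta-synthase, rose by 2.23 ± 0.26 (edgeR adjusted p = 1.05e-06).

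The channels, neuronal and membrane proteins were all called as well. Ano1, a calcium-activated chloride channel, was 0.0574 to 0.177 CPM in controls and 2.98, 2.80, 3.58 and 2.55 CPM in Ezh2 -/-. With V617F it went from 0.946, 0.771, 1.61 and 1.08 CPM in Ezh2 +/+ to 5.68 to 14.9 CPM in Ezh2 -/- (median 8.18; 3.07 ± 0.32, edgeR adjusted p = 1.67e-07). Syt14, of the synaptotagmin family of vesicle proteins, went from 0, 0.0723, 0 and 0.0878 CPM to 1.13 to 1.93 CPM (median 1.59; 4.97 ± 0.53, edgeR adjusted p = 1.86e-07). The neuronal splicing factor Nova1 rose by 3.03 ± 0.57 (edgeR adjusted p = 0.0004), the contactin gene Cntn3 by 2.75 ± 0.37 (edgeR adjusted p = 6.19e-06) and the junctophilin Jph1, which ties the plasma membrane to the endoplasmic reticulum, by 3.29 ± 0.35 (edgeR adjusted p = 1.7e-07). Cttnbp2, a cortactin-binding protein of dendritic spines, rose by 3.58 ± 0.44 (edgeR adjusted p = 1.57e-06) but reached only 0.93 to 1.51 CPM with V617F, against 3.24 to 4.11 CPM without.

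Among cytoskeletal genes, Kank1, an organiser of the cell cortex, had 3 counts over the controls and 1.33, 1.09, 1.53 and 1.38 CPM in Ezh2 -/-. With V617F it rose from 0.135, 0, 0.0629 and 0 CPM to 0.5 to 1.03 CPM (median 0.672; 3.96 ± 0.63, edgeR adjusted p = 6.74e-05). Septin10, of the filament-forming septins, rose by 2.75 ± 0.29 (edgeR adjusted p = 1.81e-07), to 2.69 to 3.65 CPM. Among secreted and surface proteins, the metalloprotease gene Adam33 rose from 0.027, 0.12, 0.0629 and 0.132 CPM to 1.67 to 4.18 CPM (median 2.90; 4.67 ± 0.45, edgeR adjusted p = 4.39e-08), and the basement membrane gene Fbln1 by 2.52 ± 0.51 (edgeR adjusted p = 0.000892). Spats2, known as a spermatogenesis-associated gene, was in no group and had the highest level per length: 6.18 CPM per kilobase of gene length in Ezh2 -/-, above Acot1 (5.13), Ddah1 (4.20) and Bmpr1a (2.78). It went with V617F from 2.97, 1.08, 0.356 and 0.527 CPM to 11.5 to 16.4 CPM (median 13.9; 3.32 ± 0.36, edgeR adjusted p = 1.89e-07). Wscd1, another ungrouped gene, rose by 3.64 ± 0.80 (edgeR adjusted p = 0.00183), to 0.294 to 1.15 CPM.

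Germline and imprinted genes made up a small group. Tex15, needed in male germ cells, measured 3.18, 2.43, 3.47 and 2.99 CPM in Ezh2 -/- and 2.97 to 3.72 CPM in V617F Ezh2 -/- (median 3.33; 2.41 ± 0.25, edgeR adjusted p = 1.55e-07). Dmc1, the meiotic recombinase, rose by 1.49 ± 0.42 (edgeR adjusted p = 0.0116), to 0.697 to 1.14 CPM, and its call was also lost without V617F Ezh2 +/+ replicate 4 (edgeR adjusted p = 0.0549). Snrpn, an imprinted gene expressed from the paternal allele, went with V617F from 0.433, 0.12, 0.0838 and 0.0439 CPM to 1.68 to 2.42 CPM (median 2.27; 3.63 ± 0.60, edgeR adjusted p = 9.31e-05). Snurf, which is read from the same transcript, had counts identical to Snrpn in every library, so the pair is 1 measurement. The counts do not tell the parental alleles apart.

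Other genes of these classes were read from lists drawn up by function, with the members left out of the counts. Only genes that passed the filter on low counts were tested. A gene silent in controls could pass it through the Ezh2 -/- libraries where it was high, which favours higher over lower calls. With members included, 204 neuronal and synaptic genes, 140 ion channels and 230 receptor, adhesion and matrix genes were measured. So were 131 secreted signals and 55 germline genes. Over all genes tested with V617F 13% were higher and 13.6% lower in Ezh2 -/-, and 17.9% of the other silent genes were higher. Of 208 measured developmental transcription factors 189 were under 0.5 CPM in controls and 3 were among the 89 genes. Of the 41 others that could be tested, 8 were higher and 1 lower (median log2 fold change 0.33). In the same comparison 25 of 85 neuronal and synaptic genes were higher and 0 lower (median 0.63), 16 of 55 ion channels were higher and 2 lower (0.49), and 37 of 117 receptor, adhesion and matrix genes were higher and 2 lower (0.70). Of 51 secreted signals, none of which was among the 89, 11 were higher and 2 lower (0.39), and of 22 germline genes 3 were higher and 3 lower (-0.24). The shares of higher genes among the developmental factors, secreted signals and germline genes were close to those of the other silent genes or of all genes. Of 13 PRC2 subunits 4 were higher and 5 lower: Epop, an accessory protein of PRC2, had a log2 fold change of 1.74, Ezh1 of 0.26 and Ezh2 of -2.38.

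The 10 genes not called with V617F included several that were already raised in 1 V617F Ezh2 +/+ library. Dzip1l, a protein of the ciliary transition zone, measured 4.79, 0.891, 0.419 and 0.592 CPM in V617F Ezh2 +/+ and 1.56 to 2.56 CPM in Ezh2 -/- (log2 0.13 ± 0.54, edgeR adjusted p = 0.875). Mpdz, a scaffold of tight junctions, measured 10.4, 3.37, 0.754 and 1.84 CPM and 5.10 to 11.2 CPM (0.79 ± 0.47, edgeR adjusted p = 0.211). Rapgef4, the cyclic AMP sensor EPAC2, was 3.65, 0.988, 0.293 and 0.68 CPM in Ezh2 +/+ (0.75 ± 0.48, edgeR adjusted p = 0.247). For 8 of the 10 the highest V617F Ezh2 +/+ library was replicate 1, the library that was highest for 65 of all 89 genes. Without it 84 of the 89 were called: Etv4, Mpdz, Rapgef4, Spin4, Ttll7 and Tcf15 were added and 1 gene was lost. The remaining values in the full fit were 0.41 for the mesoderm factor Tcf15, 0.48 for Ankrd42, 0.61 for the ETS factor Etv4, 0.73 for Btn1a1, 0.82 for Spin4 and Ttll7 and 0.91 for Tmprss6, the liver protease that controls hepcidin.

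Markers of megakaryocytes and of several other cell types were highest of the group in that library. The 17 megakaryocyte and platelet markers summed to 1556 CPM in V617F Ezh2 +/+ replicate 1 and to 682, 328 and 685 CPM in replicates 2, 3 and 4. In V617F Ezh2 +/- they summed to 205 CPM in replicate 2, which had the lowest level of the 89 genes (25.1 CPM), and to 1454 and 1551 CPM in replicates 1 and 5, which had the highest (59 and 57.5 CPM). In V617F Ezh2 -/- they ran from 851 to 1372 CPM, within the range of the other V617F libraries, at 214 to 251 CPM over the 89 genes. Between V617F Ezh2 -/- and V617F Ezh2 +/+ the 16 such markers tested had a median log2 fold change of 0.20. V617F Ezh2 +/+ replicate 1 also had its group's highest granulocyte (1247 CPM), stem and progenitor (399 CPM) and stromal and endothelial (210 CPM) marker sums. It had its group's lowest erythroid sum (7322 CPM) and lowest Ezh2 level (255 CPM). In V617F Ezh2 +/- stem and progenitor sums were 403 and 348 CPM in replicates 1 and 5 and 90.4 CPM in replicate 2. Granulocyte sums there were 1138, 677 and 901 CPM in that order. The parts of these cell types and of the Ezh2 level in the levels of the 89 genes were not tested. B cell markers differed between V617F Ezh2 -/- and V617F Ezh2 +/+, with 9 of 11 called higher in Ezh2 -/- (median log2 3.61). Their sums were 3.54 to 10.9 CPM in Ezh2 +/+ and 8.17 to 76.1 CPM in Ezh2 -/-. The V617F Ezh2 -/- library with 8.17 CPM of B cell markers, inside the Ezh2 +/+ range, held 214 CPM over the 89 genes, the lowest sum of its group, and 68 of them at 1 CPM or more. The part of B cell content was not tested. None of the 89 genes belonged to a marker list of the 9 cell types checked. Between V617F Ezh2 -/- and V617F Ezh2 +/+ the lists other than the B cell one had at most 2 genes called in either direction. The megakaryocyte list had 0.

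Loss of 1 Ezh2 allele with V617F gave no call among the 89 genes (n = 6 against 4), as for nearly all genes tested. edgeR called 0 higher and 0 lower, against 0% and 0.00718% of all genes, and DESeq2 called 0. The only gene called lower over all genes was Ezh2 itself (edgeR adjusted p = 5.41e-05). The absence of calls is therefore not particular to the 89 genes. At an unadjusted p under 0.05 there were 2, Stk32a and Depdc7, both higher. The median log2 fold change was -0.15. The V617F Ezh2 +/- libraries held 25.1 to 59 CPM over the 89 genes (median 38.9 CPM), inside the range of V617F Ezh2 +/+, whose upper end is replicate 1 alone. The other 3 V617F Ezh2 +/+ libraries lay at 23.9 to 42 CPM, and 3 of the 6 V617F Ezh2 +/- libraries were above them. Bmpr1a measured 0.694 to 3.0 CPM (median 1.03 CPM) and Ddah1 0.186 to 0.58 CPM (median 0.463 CPM) in V617F Ezh2 +/-. Cited1, a transcriptional coregulator, was the only gene whose groups did not overlap, with the Ezh2 +/- libraries lower, as 0.395% of all genes were.

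Against V617F Ezh2 +/- (n = 6), V617F Ezh2 -/- (n = 6) had 87 of the 89 genes higher and 0 lower, where 13.3% of all genes were higher. The median log2 fold change was 2.39, and for 77 genes the libraries did not overlap, against 7.52% of all genes (1.34% lower). Of the other silent genes tested, 26.4% were higher. At an unadjusted p under 0.05 all 89 were higher, and DESeq2 called 88 higher and 0 lower. The 2 genes that did not pass were Dzip1l (1.08 ± 0.48, edgeR adjusted p = 0.0939) and Tmprss6 (0.91 ± 0.35, edgeR adjusted p = 0.0548). Kank1 had 4.91 ± 0.59 (edgeR adjusted p = 9.39e-07), Adam33 4.70 ± 0.37 (edgeR adjusted p = 6.91e-10), Dock3 4.44 ± 0.46 (edgeR adjusted p = 8.03e-08) and Ddah1 3.95 ± 0.26 (edgeR adjusted p = 2.82e-11). This comparison shares its V617F Ezh2 -/- libraries with the one against V617F Ezh2 +/+. B cell markers (9 of 11) and T and NK cell markers (8 of 15) were also higher here, and their part in the result was not tested.

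The levels reached without Ezh2 were alike as a whole with and without V617F but differed gene by gene. The mean was higher with V617F for 46 genes and lower for 43, with a median ratio of 1.10. Of the 89 genes, 70 had a mean of at least 1 CPM in V617F Ezh2 -/-, and 3 (Pdx1, Esx1 and Tead1) were under 0.5 CPM. Over the 89 genes the log2 means had a Pearson r of 0.622 and the means a Spearman rank correlation of 0.575. This is a description, since the genes share libraries and depth and were chosen on 1 of the axes. The smallest ratios belonged to Pdx1 (0.197), Tead1 (0.226), Esx1 (0.231) and Etv4 (0.258). The largest belonged to Rtkn (4.50), Mpdz (3.68), Zswim5 (3.01) and Ano1 (3.0). Applied to the V617F groups in place of those without V617F, the same limits chose 86 genes, of which 36 were shared: 40.4% of the 89 and 41.9% of the 86.

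**Figure D5:**
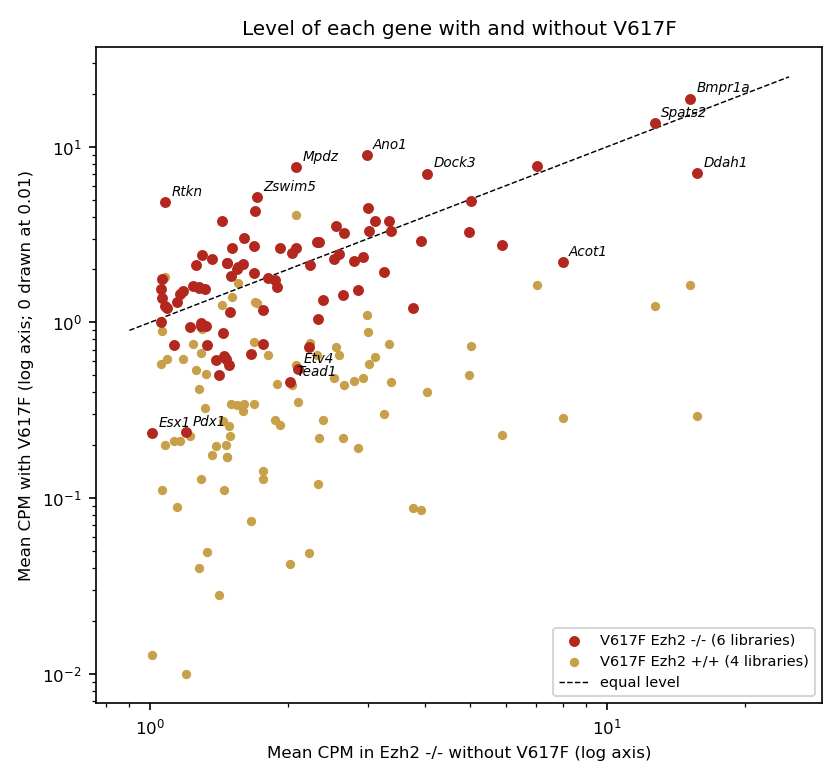
Mean CPM with V617F (vertical, log axis) against mean CPM in Ezh2 -/- without V617F (horizontal, log axis) for the 89 genes, in V617F Ezh2 -/- (red) and V617F Ezh2 +/+ (ochre). The red points lie on both sides of the line of equal level, from 0.197 times (Pdx1) to 4.50 times (Rtkn) the level without V617F. Pdx1 had 0 counts in V617F Ezh2 +/+ and is drawn there at 0.01.

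How steady a gene was over the 4 Ezh2 -/- libraries without V617F varied, with a median coefficient of variation of 17.1%. Spin4, a spindlin family gene, was the steadiest (1.11, 1.15, 1.06 and 1.03 CPM, 5.09%), then Wscd1 (7.48%) and Stk32a (7.90%). Acot1 (98.2%) varied most, then Pcsk6, a proprotein convertase (1.99, 1.67, 2.22 and 4.46 CPM, 49.1%), and Dmc1 (2.27, 1.60, 1.15 and 0.732 CPM, 45.9%). The high Acot1 and Pcsk6 values belonged to the same library, replicate 4, the male of the group, and the low Dmc1 value as well.

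The effect of V617F itself could be tested where no library had taken part in the choice, in Ezh2 +/- (n = 6 with and 4 without V617F). Of the 89 genes 8 were higher with V617F and 5 lower, against 3.35% and 6.51% of all genes and 4.41% of the other silent genes, for the higher ones. Without overlap between the groups, 5 were higher and 2 lower, against 3.04% and 5.14% of all genes. Ano1 had the largest increase, from 0.0974, 0.134, 0.177 and 0.0964 CPM to 0.418 to 1.37 CPM (median 1.11; log2 3.19 ± 0.40, edgeR adjusted p = 1.45e-05). Spats2 (1.52 ± 0.41, edgeR adjusted p = 0.0176) and Actr3b, a relative of the actin nucleator subunit ARP3 (0.85 ± 0.23, edgeR adjusted p = 0.0199), rose without overlap, and Mpdz (2.28 ± 0.57) and Rtkn (1.5 ± 0.44) with overlap. Plekhd1 had the lowest value (-2.55 ± 0.61, edgeR adjusted p = 0.00763), followed by Pparg (-1.87 ± 0.43, edgeR adjusted p = 0.00572) and Adam33 (-1.71 ± 0.45, edgeR adjusted p = 0.0142). The counts depended on single libraries: the higher calls fell to 2 without Ezh2 +/- replicate 2, 3 without replicate 5 and 5 without replicate 1 or V617F Ezh2 +/- replicate 1, and rose to 14 without V617F Ezh2 +/- replicate 2. The lower calls fell to 1 without Ezh2 +/- replicate 5 and to 3 without its replicate 4 or V617F Ezh2 +/- replicate 3. In a fit of these groups alone 1 gene was higher and 0 lower. In the same comparison 7 of 16 megakaryocyte markers and 11 of 15 granulocyte markers were higher and 13 of 15 T and NK cell markers lower, and their part in the result was not tested.

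The response with V617F was also read by CpG content, with no test. Of the 46 genes with a CpG-rich promoter 44 were higher in V617F Ezh2 -/-, with a median log2 fold change of 2.31. Of the 23 others 20 were higher, with a median of 2.66. Over all 89 genes 79 (88.8%) were higher, with a median of 2.36, close to both classes. The genes next to the 89 on the chromosome were read too: of 118 flanking genes tested 17 (14.4%) were higher, close to the 13% of all genes, with a median of 0.02. Among the 89, 11 overlap another measured gene, and for 6 of them (Nid2, Zfyve9, Fhod3, Snrpn, Kdelr3 and Fzd4) that gene is over 10 times higher, so their low counts could include reads of the neighbour, as the strand setting is not known here. From controls to Ezh2 -/- the neighbour's mean was higher for 3 of these, at 111 and 119 CPM for Rtraf (Nid2), 23.6 and 27.7 CPM for Tpgs2 (Fhod3) and 34.9 and 36.7 CPM for Tmem135 (Fzd4). It was lower for the other 3, at 99.5 and 84.9 CPM for Cc2d1b (Zfyve9), 505 and 437 CPM for Ddx17 (Kdelr3) and 27.3 and 26.3 CPM for Gm7367 (Snrpn). The part of such reads was not tested.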

How the data were processed

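RNA was sequenced from sorted MEPs, per the labels' protocols, in 29 samples, grouped by title and genotype label. The authors deposited whole-number counts for 18834 genes. Reads were aligned to mm9 with STAR, per the submitters' processing notes, and the sources used here do not give the STAR version, counting program, annotation or strand setting. Total counts were 31.6 to 59.4 M per library. Symbols and chromosomes came from RefSeq (GRCm38.p6) by Entrez identifier, which named 18772 genes; 62 unnamed ones, 0.884 to 2.68% of the counts, stayed in the fit.

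CPM were computed from the counts and file totals in Python 3.11.15. Per-length levels used the deposited gene lengths. Counts were filtered with filterByExpr (minimum count 10, minimum total 15), scaled by TMM (factors 0.950 to 1.09) and fitted with edgeR 4.0.16 under R 4.3.3 in 1 quasi-likelihood model over 29 libraries, with terms for group and labelled sex (22 residual degrees of freedom, biological coefficient of variation 18.1%). P-values were two-sided and adjusted by Benjamini-Hochberg over 13928 genes. DESeq2 1.42.0 was an alternative. Replicates differed by a chi-square per degree of freedom of at least 4.71, so no pair within a group was taken as 1 library; pairs between groups were not compared.

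The 89 genes and all lists were chosen with earlier results of these data known. Contrasts of control with Ezh2 -/- without V617F chose the genes and were not tested. Genes were named by rules: the 12 highest in Ezh2 -/-, the largest non-overlapping calls per comparison, the lowest uncalled, the highest in V617F Ezh2 +/+, the steadiest and most variable, the extremes of the V617F ratio, those at the thresholds and up to 4 per list. Others were chosen for their function after their values were seen. Alternatives were file totals, no filter, no sex term, females only, compared groups only, a replicate block, DESeq2, each library left out, and other limits of the rule and of CpG content.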

Additional observations from a re-analysis of the deposited data

Results flagged for a closer look

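Single libraries stood apart from the rest of their group in 13 of the 144 groups of values examined, by the gap between the extreme library and the next one relative to the group's range. For normally distributed values chance alone flags about 1 in 20 groups. That rate does not hold where all libraries but 1 are at 0, since such a group is always flagged. Control replicate 5 had 1 of the 89 genes at 1 CPM or more and Ezh2 +/- replicate 5 had 2, where the other libraries of these groups had 0. In Ezh2 -/- replicate 4, Acot1 was 19.7 CPM (next 4.55) and Yes1 was 9.21 CPM (next 6.39). In V617F Ezh2 -/-, Bmpr1a was lowest in replicate 6 at 15.5 CPM (next 18.6) and Me1 highest in replicate 5 at 5.40 CPM (next 3.42). Dock3 was 0.303 CPM in control replicate 5 (next 0.130), and Adam33 was 0.578 CPM in Ezh2 +/- replicate 5 (next 0.179). Pdx1 was 0.0168 CPM in control replicate 5 and Esx1 0.0180 CPM in control replicate 3, each a single count where the other 4 controls had 0. Zfyve9 was 0.286 CPM in control replicate 1 (next 0.135), 0.212 CPM in Ezh2 +/- replicate 5 (next 0.0974) and 0.676 CPM in V617F Ezh2 +/+ replicate 1 (next 0.120).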

How the results depend on the processing

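The increase of the genes in V617F Ezh2 -/- held under all 17 alternatives tried: between 70 and 84 of the 89 were called higher when 1 library was left out, and 73 to 79 otherwise. Of the 79 called genes 69 kept the call in every alternative that tested them (Pdx1 and Esx1 did not pass the count filter in the compared groups only), and Acot1, Afp, Dmc1, Fmn2, Fzd4, Kcnn1, Nudt11, Ptpru, Rtkn and Trpc1 lost it in at least 1. Against V617F Ezh2 +/- the range without 1 library was 82 to 88. Loss of 1 allele gave 0 calls under each. The V617F effect in Ezh2 +/- was the least stable: 18 higher and 3 lower without the sex term, 5 and 2 in females only, 1 and 0 in the compared groups only, and 2 to 14 higher and 1 to 5 lower without 1 library; the cause was not tested. With a replicate block the calls were 78, 0, 88 and 6 higher in the 4 comparisons and 4 lower in the last. Deviations of log CPM from the group mean were correlated over genes between same-numbered samples. These correlations were over 0.1 in 1 of 4 pairs of the main comparison (-0.352 to 0.132). Between V617F Ezh2 +/- and +/+ 3 of 4 were over 0.1 (-0.063 to 0.686). Between V617F Ezh2 -/- and +/- it was 0 of 6 (-0.489 to -0.129). For the V617F effect it was 2 of 4 (-0.33 to 0.481). As no comparison had all pairs over 0.1, the numbers were not taken as pairs. The rule chose 37 genes with a limit of 2 CPM in Ezh2 -/-, 38 with a limit of 0.25 CPM in controls, 92 with TMM-scaled levels (all 89 among them) and 84 to 105 without 1 library. The CpG-rich share was 49.3% at an observed/expected ratio of 0.75 and 69.6% with the start of highest ratio per gene, an alternative chosen after seeing the data. Depth limits the lowest genes: Pdx1 and Esx1 rest on 0 to 2 counts in V617F Ezh2 +/+ and in V617F Ezh2 +/-.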
